A study of Homo sapiens with 24 samples.

Results

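This report describes 10 genes that steer the switch between epithelial and mesenchymal cell states: the transcription factors SNAI1, SNAI2, TWIST1, ZEB1 and ZEB2, the splicing regulators ESRP1 and ESRP2, and the epithelial transcription factors GRHL2, OVOL1 and OVOL2. They were taken by gene symbol, not by their values, and each symbol matched exactly 1 of the 28297 Ensembl genes in the deposited table. The 24 messenger RNA libraries form 8 groups of 3 and came from H9, a widely used line of human embryonic stem cells, kept in E8 medium. Engineered cells (Cry2) carry the fusion Cry2-LRP6c-2A-mCherry and a puromycin resistance gene, and wild-type cells (wt) carry eGFP and a neomycin resistance gene. Cry2 is a plant photoreceptor that clusters in blue light, and LRP6c is the cytoplasmic part of LRP6, a co-receptor for Wnt ligands. Both cell kinds were grown alone, either in the dark or under light of 0.8 µW/mm2 for 48 h, giving the groups wt dark, wt light, Cry2 dark and Cry2 light. Both were also grown together at a 1:1 ratio in the dark or under the same light and then sorted by color, giving GFP dark and GFP light (wild-type neighbours) and mCherry dark and mCherry light (engineered cells). Each library pooled 2 to 3 wells, no drug or ligand is named for any group, and the labels do not say whether a line is a single clone. Monocultures were not described as sorted, so co-culture and sorting cannot be told apart.

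In an epithelial-mesenchymal transition (EMT), cells give up their junctions and apical-basal polarity and become migratory, as happens when mesoderm leaves the primitive streak of the embryo. SNAI, TWIST and ZEB proteins bind DNA and repress epithelial genes such as CDH1, which encodes E-cadherin. ESRP proteins keep the epithelial pattern of exon use, and GRHL2 and the OVOL proteins activate epithelial genes or repress ZEB1. ZEB1 and ZEB2 messages are also targets of the miR-200 family and miR-205, small RNAs that are themselves repressed by ZEB proteins.

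The ZEB pair is shown with the small RNAs known to act on it, because the 3' UTRs of ZEB1 and ZEB2 held more of these sites than those of the other 8 genes. The mature RNAs below come from RefSeq (GRCh38.p14), with the seed, bases 2 to 8, in capitals.
hsa-miR-200b-3p: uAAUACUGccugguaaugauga
hsa-miR-200c-3p: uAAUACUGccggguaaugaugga
hsa-miR-429: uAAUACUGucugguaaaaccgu
hsa-miR-141-3p: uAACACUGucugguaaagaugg
hsa-miR-200a-3p: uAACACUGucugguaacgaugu
hsa-miR-205-5p: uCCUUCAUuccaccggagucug
They fall into 3 seed groups: miR-200b, miR-200c and miR-429 share AAUACUG, miR-141 and miR-200a share AACACUG, and miR-205 has CCUUCAU. These libraries were made from poly(A) RNA, so the mature forms were not measured.

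Matches to the reverse complement of each seed were searched on the sense strand of the longest annotated 3' UTR of every gene. The UTR of ZEB1 (2549 bases) held 6 matches to CAGTATT, the miR-200b group site, 3 to CAGTGTT, the miR-141 group site, and 1 to ATGAAGG, the miR-205 site. The UTR of ZEB2 (5370 bases) held 5, 4 and 0. Among 4333 UTRs cut to the length of that of ZEB1, 27.2% held at least 1 CAGTATT and 0.0231% held 6 or more, and among 1064 cut to the length of that of ZEB2, 48.4% held at least 1 and 0.188% held 5 or more. Both shares count the gene's own UTR. Among the 4333 cut UTRs, none other than that of ZEB1 reached 6. Shorter UTRs and the parts cut off were not counted. Of the other 8 members, SNAI2 had 1 CAGTATT, ESRP1 had 1 of each of CAGTATT and CAGTGTT, GRHL2 had 1 CAGTGTT and the remaining 5 had none of the 3 words. Examples of 23 bases are given with the site in capitals.
ZEB1, miR-200b group, chr10:31527618-31527640 (plus): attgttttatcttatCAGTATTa
ZEB1, miR-141 group, chr10:31528031-31528053 (plus): caaaatcatcagaatCAGTGTTt
ZEB1, miR-205, chr10:31528067-31528089 (plus): aatatgtggtaacatATGAAGGa
ZEB2, miR-200b group, chr2:144389052-144389074 (minus): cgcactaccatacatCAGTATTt
ZEB2, miR-141 group, chr2:144388710-144388732 (minus): agtgccatccttgtaCAGTGTTa
A match of letters is a description and does not show that a site was used in these cells.

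Depth ran from 28211236 to 56620471 assigned reads per library, and the 6 dark monoculture libraries (28211236 to 34278319) were all shallower than the 6 light ones (45748680 to 54689953), so depth and light coincide in monoculture. Reads of the Cry2 fusion reached 34166.46 to 61394.2 normalised read counts in the 12 engineered libraries and 218.93 to 426.54 in the 12 wild-type ones. Groups follow the sample titles, which fit these reads, while the genotype tags of the monoculture labels name the opposite line. By GC share, RNA integrity or depth, 4 libraries stood apart. Of these, wt dark 1 had a GC share of 33.73% and Cry2 dark 3 had an RNA integrity number of 7.6. GFP light c and mCherry light c were the shallowest in co-culture at 31873054 and 31763812 reads. Other libraries were the least like their replicates, by the chi-square of reads per degree of freedom. It was 62.4 and 71.09 for mCherry light a against b and c, and 13.7 between b and c. For wt light 2 it was 51.65 and 42.58 against 1 and 3, and 5.4 between 1 and 3. The summed level of 5 pluripotent stem cell markers was 151800 to 179000 in the 18 libraries other than Cry2 light and mCherry light and 30000 to 38000 in those 6. The sum of 4 primitive streak and mesoderm markers (TBXT, MIXL1, EOMES, TBX6) was 107200 to 125100 in the same 6 libraries, 640.0 to 696.1 in GFP light and 163.9 to 246.0 in the remaining 15. The definitive endoderm marker SOX17 stayed between 0.0 and 8.8, while FOXA2, the other marker of that list, was at 35.8 to 121.8 in wt, 1.3 to 5.7 in Cry2 dark, 0.9 to 5.7 in the 6 illuminated engineered libraries and 5.4 to 35.9 in the remaining 9. In all libraries the neural markers PAX6 and SOX1 summed to at most 14.16 in any library. Neural crest markers (SOX10, FOXD3 and PAX3) summed to 40.81 to 65.63 in the same 6 libraries and 494.0 to 816.0 in the other 18. From Cry2 dark to Cry2 light the mean of FOXD3 fell from 559.1 to 0.3 and that of SOX10 from 154.9 to 32.0, while PAX3 rose from 0.5 to 25.0. PAX3 also rose in mCherry cells, from 0.3 to 17.2. Amnion and surface ectoderm markers summed to 185.1 to 270.5 in the 6 illuminated engineered libraries and 321.0 to 617.8 in the other 18. That sum hides opposite directions. From Cry2 dark to Cry2 light the mean of KRT7 fell from 520.5 to 9.6, while GATA3 rose from 7.1 to 140.2 and ISL1 from 0.9 to 87.1. From mCherry dark to mCherry light KRT7 went from 509.1 to 8.7, GATA3 from 7.3 to 105.7 and ISL1 from 4.6 to 80.3. Endothelial markers summed to 197.0 to 433.5 over all 24, mostly from TEK (group means of 223.9 to 382.8). Under light the mean of CDH5 fell from 22.4 to 2.1 in Cry2 cells and from 17.5 to 0.6 in mCherry cells. PECAM1 was at most 11.5 as a group mean. In bulk libraries, fewer cells of a type and less RNA per cell cannot be told apart, and the part of these shifts in cell state in the results below was not tested.

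Values below are normalised read counts, that is, reads of a gene divided by 1 factor per library, and changes are differences of log2(value + 1) with their standard error (SE). A gene was called when its Benjamini-Hochberg adjusted p from limma was under 0.05 over all genes tested. In engineered cells grown alone, SNAI1, SNAI2, TWIST1, ZEB1 and ZEB2 were higher under light and ESRP1, ESRP2, GRHL2, OVOL1 and OVOL2 were lower, so 5 members rose and 5 fell. All 10 are annotated as protein coding and were counted over the whole gene, so the table does not resolve exons or isoforms. Over all 19444 genes tested, 28.1% rose and 30.4% fell in that comparison. TWIST1 and ZEB2 passed the filter on low values (10 or more in 3 libraries) through the illuminated engineered libraries alone, in monoculture and in co-culture. Their calls here and in the other comparisons that hold those libraries follow in part from the filter. The other 8 passed it in the dark and wild-type libraries too. After every library was thinned to the depth of the shallowest, Cry2 light against dark still called 10 members.

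SNAI1 (ENSG00000124216, chr20:49982999-49988886, plus strand; all positions are GENCODE 29 on GRCh38) encodes the SNAIL repressor of CDH1. It had 436.1, 419.9 and 418.2 normalised read counts in the 3 Cry2 dark libraries and 16658.6, 17807.3 and 17334.0 in the 3 Cry2 light libraries. The lowest illuminated library was far above the highest dark library, and the dark values were already well above the floor. The means were 424.7 ± 9.9 and 17266.6 ± 577.3 (SD, n = 3), a 40.7-fold rise (log2 change 5.34, SE 0.09, limma adjusted p = 1.91e-15).

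SNAI2 (ENSG00000019549, chr8:48917604-48921740, minus) encodes the related repressor SLUG. It had 37.9, 22.6 and 16.4 normalised read counts in Cry2 dark and 1611.4, 1496.6 and 1612.2 in Cry2 light. It started near the floor and the groups did not overlap. The rise of its mean from 25.6 ± 11.1 to 1573.4 ± 66.5 (SD, n = 3) was 61.4-fold (log2 change 5.97, SE 0.30, limma adjusted p = 1.16e-10).

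TWIST1 (ENSG00000122691, chr7:19020991-19117672, minus) encodes a basic helix-loop-helix factor of mesoderm and neural crest. It had 2.6, 5.7 and 7.4 normalised read counts in Cry2 dark, from 11 reads in all, and 61.5, 69.7 and 79.9 in Cry2 light. It rose clear of the dark libraries and had the lowest level of the 5 EMT factors under light, also per kb of exon. The means of 5.2 ± 2.4 and 70.4 ± 9.2 (SD, n = 3) differed 13.4-fold (log2 change 3.59, SE 0.51, limma adjusted p = 2.07e-05).

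ZEB1 (ENSG00000148516, chr10:31318495-31529814, plus) encodes a zinc finger repressor of epithelial genes. It had 10.4, 11.3 and 10.4 normalised read counts in Cry2 dark and 779.0, 880.0 and 784.4 in Cry2 light. No library of either group came near the other group, and the mean rose 75.9-fold from 10.7 ± 0.5 to 814.5 ± 56.8 (SD, n = 3) (log2 change 6.12, SE 0.40, limma adjusted p = 3.18e-09). Its paralog ZEB2 (ENSG00000169554, chr2:144364364-144524583, minus) had 1.3, 5.7 and 1.5 normalised read counts in Cry2 dark, from 6 reads in all, and 4940.9, 4931.5 and 4919.1 in Cry2 light. The 3 illuminated libraries were nearly alike, and the ratio of means, 1750-fold, rests on those 6 dark reads (log2 change 10.52, SE 0.73, limma adjusted p = 6.11e-09). Among all 19444 genes ZEB2 ranked 29 by the size of its rise, ahead of ZEB1 at 174, SNAI2 at 188, SNAI1 at 244 and TWIST1 at 498. The rank of ZEB2 rests on the same 6 dark reads and on the pseudocount. Its log2 change ran from 9.35 to 11.01 over the alternatives. ZEB2 and TWIST1 were ranked only because the illuminated engineered libraries carried them past the filter. A gene that starts near the floor can show a larger ratio than SNAI1, which started at 424.7.

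**Figure D1:**
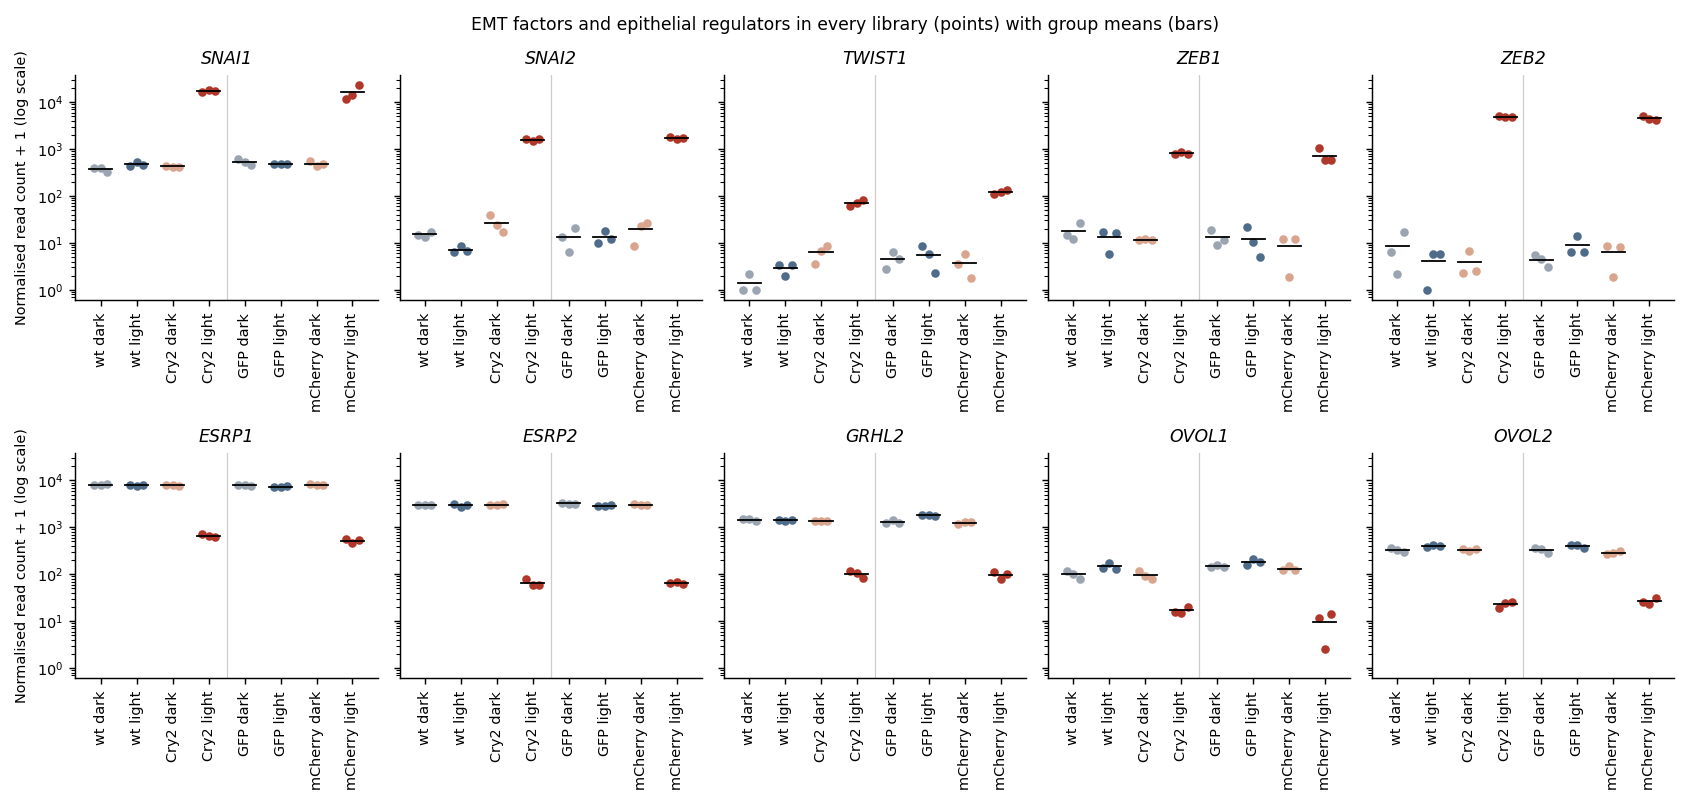
Normalised read count plus 1 (log axis) of the 10 genes in each of the 24 libraries, with 1 panel per gene, points for libraries and bars for group means; monoculture groups are left and sorted co-culture groups right of the grey line. In every panel the 6 libraries of Cry2 light and mCherry light lie apart from the other 18, above them for the 5 EMT factors and below them for the 5 epithelial regulators.

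ESRP1 (ENSG00000104413, chr8:94641074-94707466, plus) encodes a splicing regulator of epithelial cells. It had 7818.0, 7972.6 and 7749.3 normalised read counts in Cry2 dark and 706.6, 645.0 and 614.0 in Cry2 light. The illuminated values were all far below the dark ones but not near 0. Its mean fell from 7846.6 ± 114.3 to 655.2 ± 47.1 (SD, n = 3) (log2 change -3.58, SE 0.06, limma adjusted p = 1.31e-15).

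ESRP2 (ENSG00000103067, chr16:68229111-68238102, minus), its paralog, had 3009.5, 2976.1 and 3097.0 normalised read counts in Cry2 dark and 78.7, 57.5 and 57.7 in Cry2 light. This was a deeper fall than that of ESRP1: the mean dropped 46.8-fold, from 3027.5 ± 62.5 to 64.6 ± 12.2 (SD, n = 3) (log2 change -5.54, SE 0.11, limma adjusted p = 2.95e-15). The level left under light was 2.14% ± 0.403 (SD, n = 3) of the dark mean for ESRP2 and 8.35% ± 0.601 for ESRP1, and the 3 libraries of each did not overlap (1.90 to 2.60% and 7.83 to 9.01%).

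GRHL2 (ENSG00000083307, chr8:101492432-101669726, plus) encodes a grainyhead-like factor that maintains epithelial enhancers. It had 1377.4, 1384.1 and 1348.4 normalised read counts in Cry2 dark and 114.9, 105.3 and 83.4 in Cry2 light. The groups were widely separated, with 1370.0 ± 19.0 against 101.2 ± 16.2 (SD, n = 3), a 13.5-fold fall (log2 change -3.76, SE 0.10, limma adjusted p = 1.38e-13). OVOL2 (ENSG00000125850, chr20:17956979-18059188, minus) encodes a zinc finger repressor of mesenchymal genes. It had 351.2, 308.2 and 340.8 normalised read counts in Cry2 dark and 21.9 ± 3.3 (SD, n = 3) in Cry2 light, with 18.1 the lowest library and 23.5 the median. It fell 15.3-fold (log2 change -3.88, SE 0.15, limma adjusted p = 7.89e-12). OVOL1 (ENSG00000172818, chr11:65787022-65797219, plus), of the same family, had 117.5, 91.9 and 78.9 in Cry2 dark and 14.5, 13.8 and 19.5 in Cry2 light, the smallest fall of the 5 at 6.03-fold (log2 change -2.52, SE 0.25, limma adjusted p = 4.39e-07).

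Wild-type cells grown alone gave no called member under the same light by limma, where 0.072% of all 19444 genes were called. At an unadjusted p under 0.05, 3 members passed, edgeR on the recovered reads called 0 and DESeq2 called 1. SNAI1 had 390.8, 389.6 and 327.9 normalised read counts in wt dark and 426.5, 533.0 and 456.3 in wt light. These groups did not overlap, yet the log2 difference of 0.35 (SE 0.09) missed the threshold (limma adjusted p = 0.186) and was the 1 member that DESeq2 called (adjusted p = 0.034). SNAI2 had 13.8, 12.4 and 16.1 in wt dark against 5.4, 7.6 and 5.6 in wt light (log2 difference -1.08, SE 0.30, limma adjusted p = 0.195), from 33 and 22 reads. OVOL1 was at 98.7 ± 20.1 in wt dark and 145.7 ± 26.8 in wt light (SD, n = 3; limma adjusted p = 0.366). For the well-measured epithelial genes the 95% intervals of the log2 difference were narrow around 0: -0.19 to 0.06 for ESRP1, -0.25 to 0.20 for ESRP2 and -0.26 to 0.19 for GRHL2.

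The light response differed between Cry2 and wt cells for the 10 members, by a test of the interaction in the same limma model, in 5 upward and in 5 downward, where 22.8% of all genes were called upward and 25.0% downward. The difference of the log2 changes ran from 11.49 (SE 1.03, limma adjusted p = 2.28e-07) for ZEB2 to -5.51 (SE 0.15, limma adjusted p = 4.71e-13) for ESRP2. For TWIST1 it was 2.50 (SE 0.73, limma adjusted p = 0.0102), which was no longer called by edgeR (adjusted p = 0.497), by DESeq2 (adjusted p = 0.355) or with a pseudocount of 0.5 (limma adjusted p = 0.057). TWIST1 had 1 read over the 3 wt dark libraries and 7 over the 3 wt light libraries, so that its wild-type change is hardly measured.

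**Figure D2:**
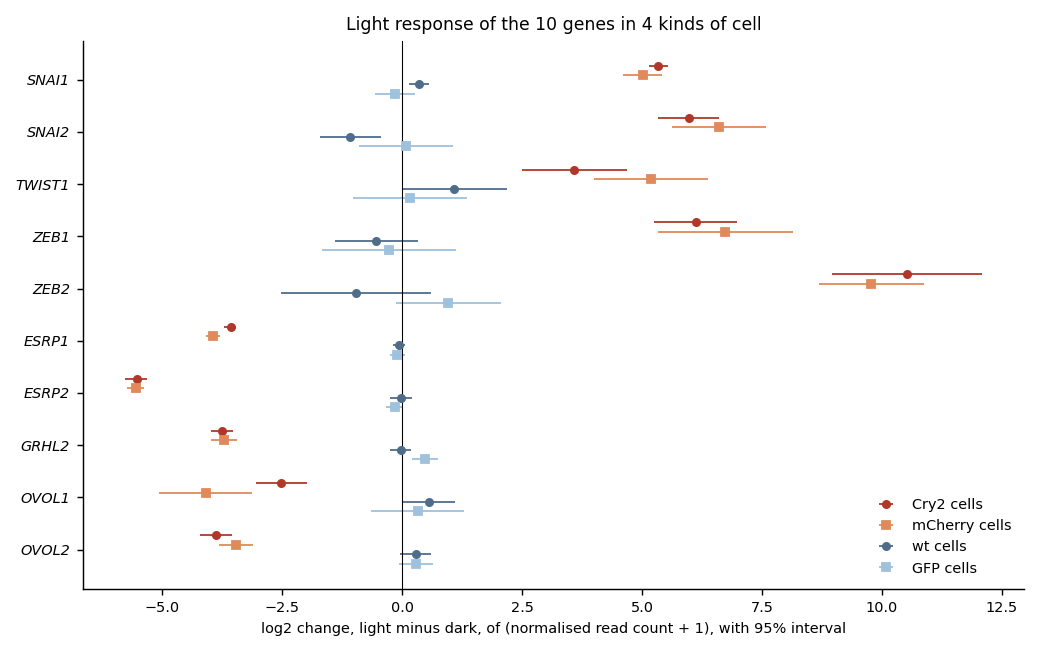
Log2 change between light and dark (horizontal axis, difference of log2 of the normalised read count plus 1) with 95% intervals from limma, for the 10 genes (rows) in Cry2, mCherry, wt and GFP cells. The 2 engineered series lie far from 0 for every gene, from -5.54 or -5.56 for ESRP2 to 10.52 or 9.78 for ZEB2, while the 2 wild-type series lie between -1.08 and 1.09.

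In the dark, Cry2 and wt cells differed in 1 member, TWIST1, where 2.27% of all genes were higher in Cry2 and 3.6% differed either way. TWIST1 had 2.6, 5.7 and 7.4 normalised read counts in Cry2 dark (11 reads) and 0.0, 1.2 and 0.0 in wt dark (1 read). Both groups are near the floor, the log2 difference of 2.17 (SE 0.51, limma adjusted p = 0.0297) depends on the pseudocount, and the call was lost by edgeR (adjusted p = 0.0809), by DESeq2 (adjusted p = 0.0882) and without any of wt dark 1, wt dark 3, Cry2 dark 2 or Cry2 dark 3 (limma adjusted p from 0.0939 to 0.117). Without both wt dark 1 and Cry2 dark 3, which stood apart, its adjusted p was 0.236. The other 9 members had log2 differences between -0.90 and 0.74 in the dark. Under light, 5 members were higher and 5 lower in Cry2 than in wt, where 29.6% of all genes were higher and 31.3% lower; this comparison shares its Cry2 light libraries with the light response and adds the wild-type reference, with SNAI1 at 36.6-fold and ESRP2 at 45.9-fold lower.

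Engineered cells sorted from co-culture gave the same split, 5 members higher and 5 lower in mCherry light than in mCherry dark, where 27.2% of 19436 genes rose and 28.7% fell. TWIST1 and ZEB2 passed the filter through mCherry light alone, so their calls follow in part from it. SNAI1 had 543.5, 434.5 and 488.9 normalised read counts in mCherry dark and 11674.0, 14144.3 and 23438.6 in mCherry light. The illuminated libraries spread about the mean of 16419.0 by an SD of 6203.4, much wider than in monoculture, with library c, the shallowest, highest. The rise was 33.6-fold (log2 change 5.01, SE 0.19, limma adjusted p = 1.05e-11). SNAI2 had 7.7, 22.3 and 26.1 in mCherry dark and 1810.5, 1647.2 and 1708.2 in mCherry light, a 92.0-fold rise (log2 change 6.61, SE 0.46, limma adjusted p = 8.91e-09). TWIST1 went from 2.6, 4.7 and 0.8 (9 reads) to 108.7, 119.7 and 130.9 (log2 change 5.19, SE 0.55, limma adjusted p = 1.25e-06).

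The ZEB genes rose in the sorted cells as well. ZEB1 had 11.1, 0.9 and 11.1 normalised read counts in mCherry dark and 1030.2, 575.0 and 574.9 in mCherry light (log2 change 6.74, SE 0.66, limma adjusted p = 4.52e-07). Library a stood highest for ZEB1, while b and c were alike. ZEB2 had 7.7, 0.9 and 7.1 (19 reads) in mCherry dark and 5184.3, 4327.9 and 4117.6 in mCherry light, an 865-fold ratio of means (log2 change 9.78, SE 0.51, limma adjusted p = 3.61e-10).

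The epithelial regulators fell in the sorted cells. ESRP1 had 8291.7, 7898.4 and 7832.4 normalised read counts in mCherry dark and 553.2, 469.0 and 537.3 in mCherry light, a 15.4-fold fall (log2 change -3.95, SE 0.07, limma adjusted p = 8.77e-15). ESRP2 had 3096.0, 3006.8 and 3017.9 against 63.1, 67.1 and 60.2, a 47.9-fold fall (log2 change -5.56, SE 0.08, limma adjusted p = 5.12e-16). Neither pair of groups overlapped, and ESRP2 again kept a smaller share of its dark level, 2.09% ± 0.114 against 6.49% ± 0.559 (SD, n = 3) for ESRP1. GRHL2 fell 13.1-fold to 113.1, 76.8 and 97.8, and OVOL2 fell 11.3-fold to 24.5, 21.8 and 30.1. OVOL1 fell to 10.5, 1.6 and 13.5, the 1.6 of library b resting on 2 reads, and its 15.2-fold ratio (log2 change -4.10, SE 0.46, limma adjusted p = 1.93e-06) is held less tightly than that of OVOL2 (log2 change -3.46, SE 0.16, limma adjusted p = 1.14e-10).

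Whether culture changed the response of engineered cells was tested in a fit of all 24 libraries, where 0.064% of 20322 genes were called. No member was called by limma, edgeR or DESeq2, and 3 passed an unadjusted p of 0.05. For ESRP1 the log2 change in co-culture minus that in monoculture was -0.36 ( SE 0.09, 95% interval -0.55 to -0.17, limma adjusted p = 0.274), and this passed the threshold without mCherry light a (difference -0.41, limma adjusted p = 0.0386). That difference was 1.59 for TWIST1 (SE 0.76, limma adjusted p = 0.964) and -1.59 for OVOL1 (SE 0.54, limma adjusted p = 0.678), both of which rest on few reads in one condition. For ESRP2 and GRHL2 the differences were -0.02 (95% interval -0.29 to 0.25) and 0.04 (95% interval -0.30 to 0.38).

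Wild-type neighbours sorted from the illuminated co-culture differed from those of the dark co-culture in 1 member, GRHL2, where 2.39% of 19436 genes rose and 4.6% were called either way. GRHL2 had 1234.6, 1437.5 and 1250.0 normalised read counts in GFP dark and 1792.4, 1865.9 and 1759.6 in GFP light. All GFP light libraries were above all other libraries of the series for this gene. The share of all genes with such a separation was not counted. The mean of GRHL2 rose 1.38-fold from 1307.3 ± 112.9 to 1806.0 ± 54.4 (SD, n = 3, log2 change 0.47, SE 0.13, limma adjusted p = 0.0485). That call sat at the threshold: it was lost without any 1 of the 6 GFP libraries (limma adjusted p from 0.0714 to 0.183), after thinning (0.21), with a pseudocount of 0.5 (0.051), with no filter (0.0655) and without library c, the shallowest, together with mCherry light c (0.0809). Of 16 alternatives, 6 kept it: edgeR, DESeq2, TMM scaling, a pseudocount of 5, a filter of at least 50 and a fit of these groups alone.

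No other epithelial member passed the test in these neighbours. OVOL1 had 145.1, 153.5 and 144.5 normalised read counts in GFP dark and 159.4, 210.0 and 185.9 in GFP light, and OVOL2 had 358.4, 339.4 and 289.8 against 414.3, 427.6 and 366.5. In both genes the mean was higher in GFP light without passing the test (log2 differences 0.32, SE 0.46, and 0.29, SE 0.16, limma adjusted p = 0.812 and 0.406). Wild-type monocultures leaned the same way, with OVOL1 at 145.7 ± 26.8 in wt light and 98.7 ± 20.1 in wt dark (SD, n = 3). OVOL2 was at 401.0 ± 14.3 and 331.1 ± 30.1 there (limma adjusted p = 0.443). The light effects in co-culture minus monoculture were -0.25 (SE 0.54) for OVOL1 and 0.01 (SE 0.22) for OVOL2, neither called. ESRP1 and ESRP2 lay slightly lower in GFP light, at 7377.3 ± 84.1 against 7892.6 ± 217.5 and 2888.3 ± 87.2 against 3229.7 ± 127.2 (SD, n = 3), also without passing (limma adjusted p = 0.583 and 0.334). Of the EMT factors, SNAI1 was at 477.2 ± 11.2 in GFP light and 533.3 ± 73.0 in GFP dark, and the other 4 had means under 13 in both groups. ZEB2 was at 5.3, 13.2 and 5.4 in GFP light against 4.4, 3.6 and 2.1 in GFP dark, from 25 and 12 reads (limma adjusted p = 0.386).

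**Figure D3:**
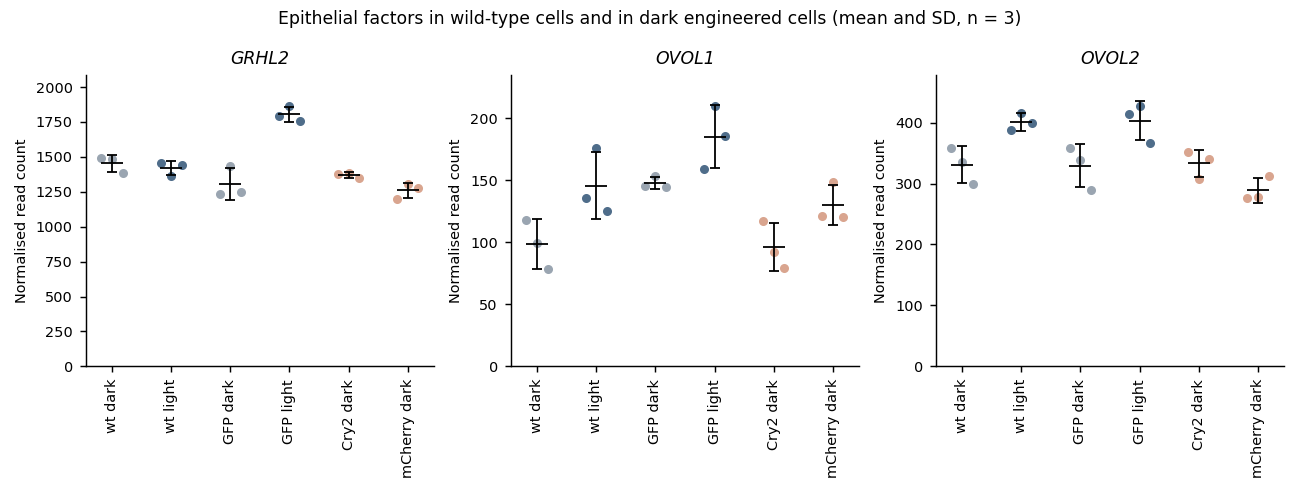
Normalised read count (linear axis from 0) of GRHL2, OVOL1 and OVOL2 in the 4 wild-type groups and the 2 dark engineered groups, with points for libraries and bars for mean and SD (n = 3). GRHL2 in GFP light, at 1759.6 to 1865.9, lies above every other library shown, and OVOL1 in GFP light, at 159.4 to 210.0, also lies above the other groups except wt light, while OVOL2 in GFP light overlaps wt light.

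The sum of the streak markers was higher in GFP light than in GFP dark (640.0 to 696.1 against 201.8 to 246.0). The mean of TBXT went from 4.6 to 118.7, that of MIXL1 from 48.2 to 156.6 and that of EOMES from 5.9 to 243.8. TBX6 did not rise (158.4 in GFP dark and 146.5 in GFP light). The Cry2 fusion was at 357.92 to 421.79 normalised read counts in GFP light and 348.7 to 397.75 in GFP dark. The puromycin resistance gene was at 0.0 to 3.01 and 0.0 to 5.72. The part of the streak markers or of the construct reads in the GRHL2 difference was not tested. The light effect on GRHL2 in co-culture minus that in monoculture was 0.50 (SE 0.17, limma adjusted p = 0.138) and was called by DESeq2 (adjusted p = 0.00369) and in a fit of the wild-type libraries alone (limma adjusted p = 0.0269). Over the 10 members limma called 0 in that test, where 2.3% of 20322 genes were called, 2 passed an unadjusted p of 0.05, edgeR called 0 and DESeq2 called 1. In the dark co-culture, mCherry and GFP cells differed in 0 members by limma, edgeR or DESeq2, with 0 at an unadjusted p under 0.05, where 0.797% of 19436 genes were called. Under light they differed in 10 members, 5 higher and 5 lower in mCherry light, where 26.8% of genes were higher and 27.6% lower. The interaction of light with cell kind in co-culture also called 5 upward and 5 downward, where 19.5% and 21.0% of genes were called.

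Across the 8 groups, the 6 illuminated engineered libraries did not overlap the other 18 for any of the 10 genes, a separation that 16.7% of 20322 genes showed upward and 17.0% downward. SNAI1 ran from 327.9 to 608.0 (median 459.3) in the 18 and from 11674.0 to 23438.6 (median 16996.3) in the 6. Among the 18 its groups overlapped along the order of their means, from GFP dark (533.3) to Cry2 dark (424.7), with wt dark (369.4) lowest and clear of Cry2 dark. SNAI2 and TWIST1 were highest in mCherry light, which did not overlap Cry2 light, as for 5.77% of 20322 genes (1722.0 ± 82.5 against 1573.4 ± 66.5 for SNAI2 and 119.8 ± 11.1 against 70.4 ± 9.2 for TWIST1; SD, n = 3). ZEB1 and ZEB2 did not separate the 2 illuminated engineered groups from each other, and their 6 other groups overlapped in an unbroken chain. ESRP1 was lower in mCherry light than in Cry2 light (519.8 ± 44.7 against 655.2 ± 47.1; SD, n = 3) without overlap, and so was OVOL1 (8.6 ± 6.2 against 15.9 ± 3.1), as for 5.05% of 20322 genes. SNAI1, ESRP2, GRHL2 and OVOL2 overlapped between the 2 groups.

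Paralogs were compared per kb of annotated exon, a scale on which levels of different genes can be set side by side. In Cry2 light, SNAI1 was at 10240 ± 342 normalised read counts per kb, SNAI2 at 648.0 ± 27.4, ZEB2 at 369.1 ± 0.82, ZEB1 at 126.6 ± 8.83 and TWIST1 at 42.23 ± 5.51 (SD, n = 3), so SNAI1 was the most abundant of the 5 messages. The ratio of ZEB2 to ZEB1 per kb was 2.93 ± 0.196 in Cry2 light and 3.17 ± 0.649 in mCherry light (SD, n = 3). It was 0.123 to 0.481 as a group mean in the other 6 groups, where both genes rest on few reads. On this scale the order of the 2 paralogs was opposite in illuminated engineered cells. That order depends on the exon lengths used, 13357 bases for ZEB2 and 6435 for ZEB1. In GFP light b and c, ZEB2 held more reads than ZEB1 (14 against 10 and 4 against 3). The ratio of SNAI1 to SNAI2 was 15.8 ± 1.16 in Cry2 light and 13.8 ± 5.38 in mCherry light (SD, n = 3), and 26.7 to 111 as a group mean elsewhere.

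ESRP1 exceeded ESRP2 per kb by 2.43 to 2.68 as a group mean in the 6 dark or wild-type groups, with SDs of 0.0306 to 0.119. That ratio was 10.2 ± 1.15 in Cry2 light and 8.16 ± 1.07 in mCherry light (SD, n = 3), so little ESRP2 was left beside the remaining ESRP1. OVOL2 exceeded OVOL1 by 4.75 to 7.67 in the same 6 groups and by 3.01 ± 0.583 in Cry2 light. In mCherry light its ratio ran from 4.80 to 29.1, the upper end coming from the library with 2 OVOL1 reads.

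**Figure D4:**
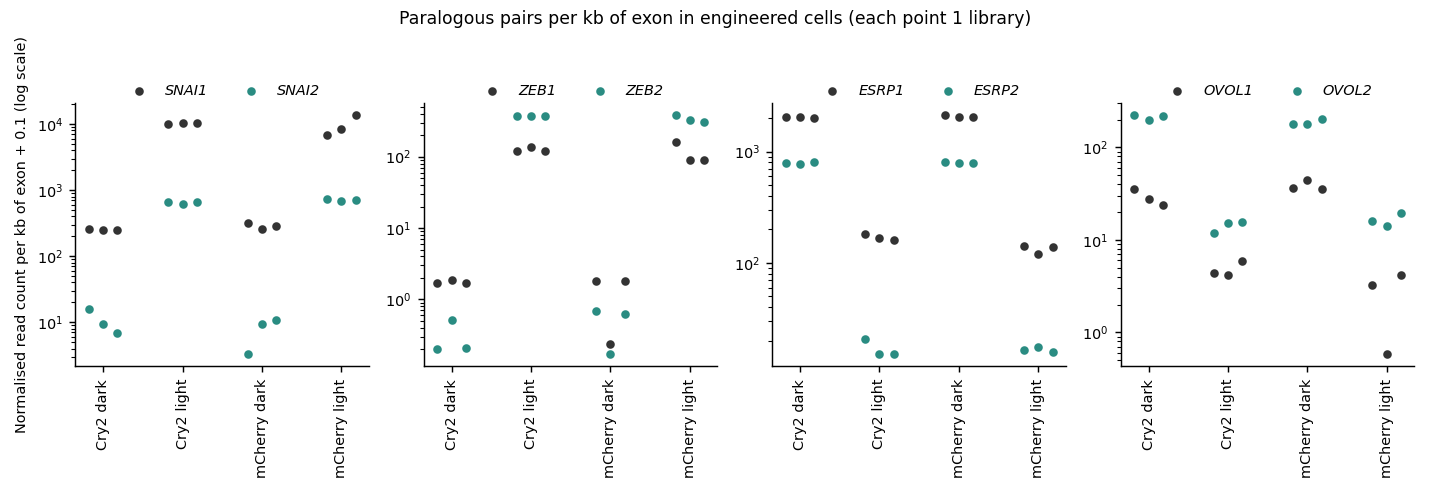
Normalised read count per kb of exon (log axis, with 0.1 added so that low values can be drawn) for 4 pairs of paralogs in the 4 engineered groups, each point 1 library. Per kb, ZEB2 lies under ZEB1 in the dark, where both rest on few reads, and above it under light. The gap between ESRP1 and ESRP2 is wider under light, and SNAI1 stays above SNAI2 throughout.

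For each member the 3 genes most alike over the 24 libraries were taken by Pearson correlation of log2(value + 1) among 14963 genes. With 6 libraries far from the other 18, these correlations mostly describe that separation, and they carry no test. SNAI1 was most like CDH24, HOXB6 and HOXB-AS3 (each 0.996), SNAI2 like TP53I11 (0.988), RRBP1 and BMP5, and TWIST1 like CDAN1, MFAP4 (each 0.96) and MAN1A1. ZEB1 was most like DAB2 (0.973), TIFA and ANTXR2, and ZEB2 like RCAN2, HOXB3 and JAM3 (each 0.982). Among the genes that fell, ESRP1 was most like ESRG, NFE2L3 and FOXD3-AS1 (each 0.998), and ESRP2 like SOX2, LINC00678 and CGN, the tight junction gene for cingulin (each 0.999). GRHL2 was most like DPPA4 (0.997), NANOG and UNC13A, OVOL2 like RASSF2 (0.995), PPP2R2B and SFRP2, and OVOL1 like GDPD2 (0.968), GRIK3 and SRSF8. The pluripotency genes SOX2, NANOG and DPPA4 thus stand among the nearest genes of ESRP2 and GRHL2.

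Genes that work with the members were described as lists, with no test of a list. Of 10 EMT partner factors, 9 rose and 1 fell in Cry2 light (median log2 change 2.34, against -0.01 over all genes) and 9 rose and 1 fell in mCherry light. Over all genes, 28.1% rose and 30.4% fell in Cry2 and 27.2% and 28.7% in mCherry light. Of these 10, FOXC1, FOXC2, GSC and PRRX1 passed the filter through the illuminated engineered libraries alone, so their rise follows in part from the filter; of the other 6, 5 rose and 1 fell in either culture. The forkhead factor FOXC1 rose from 2.9 ± 2.8 to 8286.9 ± 281.0 normalised read counts (SD, n = 3) in Cry2 cells and the homeobox gene GSC from 4.6 ± 2.8 to 891.8 ± 82.9. TCF4, which encodes an E protein that pairs with TWIST1, rose 3.37-fold from an already high 3129.0 ± 64.5. The gene that fell was SNAI3, the third SNAI paralog, which went against SNAI1 and SNAI2: it had 523.6 ± 54.8 in Cry2 dark and 2.5 ± 2.1 (9 reads) in Cry2 light, a 208-fold fall (log2 change -7.38, SE 0.30, limma adjusted p = 9.37e-12). In mCherry cells SNAI3 fell 147-fold (log2 change -7.34, SE 0.51, limma adjusted p = 9.85e-09).

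Of 13 further epithelial transcription factors, 8 could be tested in monoculture and 7 of them fell in Cry2 light with 0 rising (median log2 change -2.62). ELF3 fell 14.5-fold, TFAP2C 12.5-fold and GRHL1, a paralog of GRHL2, 4.92-fold, from 176.5 ± 21.2 to 35.9 ± 3.1 normalised read counts (SD, n = 3). In mCherry light 7 of 9 tested fell and 0 rose. Among all genes 30.4% fell in Cry2 light and 28.7% in mCherry light.

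Of 22 genes for epithelial junctions and polarity, 21 fell and 1 rose in both kinds of illuminated engineered cells (median log2 change -3.04 in Cry2 and -3.16 in mCherry). Among all genes 30.4% fell and 28.1% rose in Cry2 light, and 28.7% and 27.2% in mCherry light. CDH1 fell 13.2-fold in Cry2 cells, from 11736.5 ± 187.3 to 889.0 ± 98.4 normalised read counts (SD, n = 3; log2 change -3.73, SE 0.08, limma adjusted p = 7.15e-15), and 19.9-fold in mCherry cells. The largest falls included CLDN3, a tight junction claudin, at 120-fold, MARVELD3 at 95.8-fold, TJP3 at 92.9-fold and the polarity gene CRB3 at 52.2-fold in Cry2 cells. DSP, which encodes the desmosome protein desmoplakin, was the exception: it rose 3.47-fold in Cry2 cells, from 6699.6 ± 338.7 to 23268.8 ± 1166.8 (SD, n = 3; log2 change 1.80, SE 0.14, limma adjusted p = 2.57e-08), and 3.57-fold in mCherry cells.

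Of 16 mesenchymal genes, 12 rose and 3 fell in Cry2 light and 13 rose and 3 fell in mCherry light. Among all genes 28.1% rose and 30.4% fell in Cry2 light, and 27.2% and 28.7% in mCherry light. CDH11, a cadherin of mesenchymal cells, rose 85.4-fold and 86.4-fold, and the intermediate filament gene VIM rose 16.2-fold and 19.6-fold. The collagen gene COL5A1 rose 27.0-fold in Cry2 cells, and COL3A1 went from 1.8 ± 0.7 to 2187.3 ± 274.7 normalised read counts (SD, n = 3). Those that fell were LOX (5.46-fold in Cry2 and 2.63-fold in mCherry cells), POSTN (4.62-fold and 2.04-fold), both from means under 40, and S100A4 (1.35-fold and 1.59-fold). COL3A1 passed the filter through the illuminated engineered libraries alone.

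**Figure D5:**
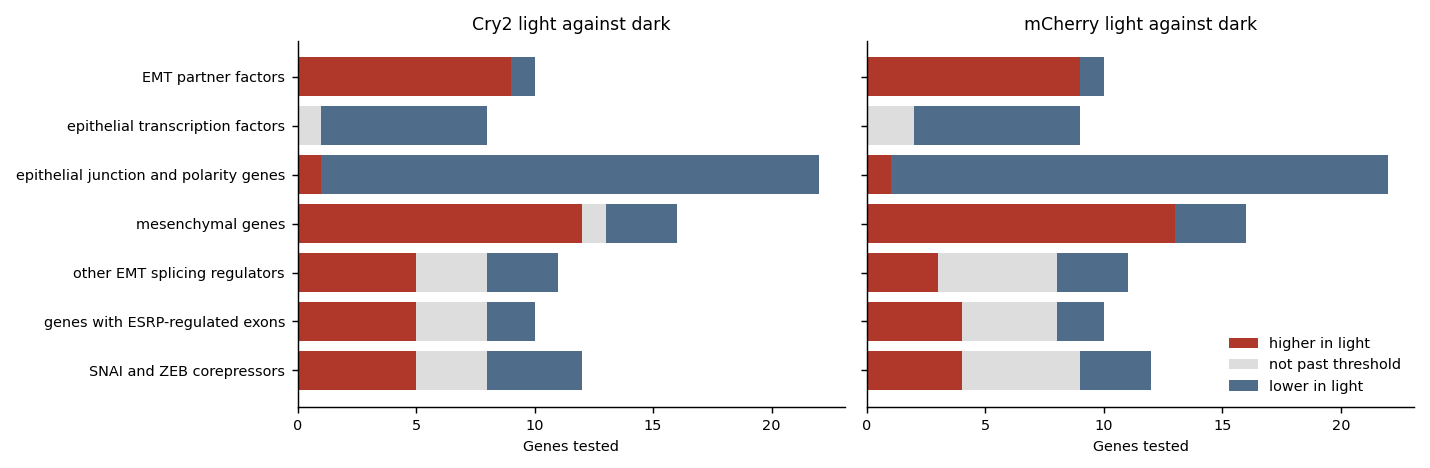
Number of genes tested in 7 described lists (horizontal axis), split into genes higher in light, not past the threshold and lower in light, for Cry2 (left) and mCherry (right) cells. Of the 22 junction and polarity genes 21 are lower in both, while splicing regulators, genes with ESRP-regulated exons and corepressors are split between directions.

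Of 11 other regulators of EMT splicing, 5 rose and 3 fell in Cry2 light and 3 rose and 3 fell in mCherry light, beside 28.1% rising and 30.4% falling over all genes in Cry2 and 27.2% and 28.7% in mCherry. Apart from the 5 that rose in Cry2 light, these shares are near those of all genes. RBM47, an RNA-binding protein of epithelial cells, fell 8.31-fold in Cry2 cells, from 3099.5 ± 55.4 to 373.1 ± 47.0 normalised read counts (SD, n = 3), and 7.62-fold in mCherry cells. RBFOX2, known for mesenchymal exon use, rose 1.39-fold and 1.46-fold, and MBNL1 fell 2.51-fold and 2.38-fold while its paralog MBNL3 rose 1.75-fold and 1.62-fold. Of 10 genes known for exons that ESRP proteins regulate, 5 rose and 2 fell in Cry2 light at the level of the whole gene. CD44 rose 5.56-fold and FGFR2 fell 4.79-fold in Cry2 cells, and the exon choice within them was not measured by this table.

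Of 12 cofactors through which SNAI and ZEB proteins repress, 5 rose and 4 fell in Cry2 light and 4 rose and 3 fell in mCherry light, with a median log2 change of 0.02 in Cry2 cells. Over all genes 28.1% rose and 30.4% fell in Cry2 and 27.2% and 28.7% in mCherry light, so the falls and the mCherry counts are near the background. EZH2, a histone methyltransferase of the Polycomb system, rose 2.18-fold in Cry2 cells, RCOR1 rose 1.55-fold, and CTBP1 rose 1.30-fold while its paralog CTBP2 fell 1.21-fold.

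The non-coding neighbours of the ZEB genes and of the small RNAs were given as a last group of 4, of which 1 rose and 2 fell in Cry2 light. In that comparison 28.1% of all genes rose and 30.4% fell. ZEB2-AS1, the antisense RNA of ZEB2, had 0.0 in each of the 18 libraries and 16.6 to 64.9 normalised read counts in the 6 illuminated engineered ones. ZEB1-AS1, that of ZEB1, was at 131.9 to 292.9 in the 18 and 164.5 to 253.4 in the 6 (Cry2 light against dark: log2 difference 0.15, SE 0.22, limma adjusted p = 0.587). It was therefore present where ZEB1 was near the floor. All 4 neighbours, ZEB1-AS1 among them, were called in mCherry against GFP under light, 2 higher and 2 lower, where 26.8% and 27.6% of genes were called. The interaction of light with cell kind in co-culture gave the same counts, where 19.5% and 21.0% of genes were called. In GFP light against dark, 2 of the 4 were lower, MIR205HG among them, where 4.6% of genes were called either way. The sources used here do not say whether counting used strand, so reads of a gene and its antisense partner could be mixed, and the SNAI1 pseudogene SNAI1P1 held at most 3.8 in any library.

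MIR205HG, the host transcript of miR-205, had 728.4 ± 35.7 normalised read counts in Cry2 dark and 87.7 ± 17.4 in Cry2 light (SD, n = 3), an 8.31-fold fall, and fell 11.5-fold in mCherry cells. It also fell in the wild-type neighbours, 3.89-fold from 505.8 ± 95.4 in GFP dark to 130.1 ± 11.7 in GFP light (SD, n = 3; log2 change -1.94, SE 0.24, limma adjusted p = 0.000199). In wt monoculture it was at 404.2 ± 32.4 in the dark and 359.0 ± 45.8 under light, and the test of the difference between the 2 wild-type light effects gave -1.76 (SE 0.29, limma adjusted p = 0.000642). MIR200CHG, the host of miR-200c and miR-141, was at most 36.8 in any library and fell in Cry2 cells from 43 reads to 6.

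In the other lists, limma called 0 genes in wt monoculture under light and few in the wild-type neighbours. In GFP light against GFP dark, 0 of 10 EMT partner factors, 1 of 22 junction genes upward and 2 downward, and 2 of 16 mesenchymal genes upward passed the test, where 2.39% of all genes rose and 4.6% were called either way. Of the epithelial transcription factors 1 of 9 rose, TFAP2A, from 0.0 in GFP dark to 17.8 ± 2.5 normalised read counts (SD, n = 3); it passed the filter through the GFP light libraries alone. The junction genes that fell were CLDN4 (1.80-fold, limma adjusted p = 0.00842) and CDS1 (1.51-fold, limma adjusted p = 0.00804), and the mesenchymal genes that rose were CDH2 (1.41-fold, limma adjusted p = 0.000679) and FN1 (1.53-fold, limma adjusted p = 0.00058). FGFR3, a fibroblast growth factor receptor whose exons ESRP proteins regulate, rose 2.05-fold from 1097.4 ± 47.0 to 2247.6 ± 59.2 normalised read counts (SD, n = 3; log2 change 1.03, SE 0.09, limma adjusted p = 8.07e-06). It was at 1061.5 ± 141.6 in wt dark and 1083.7 ± 141.2 in wt light (SD, n = 3), and the 2 light effects differed (difference 1.00, SE 0.14, limma adjusted p = 9.79e-05). DSP rose 1.21-fold in GFP light (limma adjusted p = 0.0383), the direction it took in engineered cells, and AJUBA, a LIM-domain corepressor partner of SNAI proteins, fell 1.49-fold (limma adjusted p = 0.00167). CDH1 was at 14721.2 ± 488.7 in GFP light and 11994.9 ± 380.2 in GFP dark (SD, n = 3), which missed the threshold (log2 difference 0.30, SE 0.09, limma adjusted p = 0.0823). Between Cry2 and wt in the dark, 5 of 16 mesenchymal genes were higher, where 2.27% of all genes were higher and 3.6% differed. There, 3 of 11 splicing regulators and 2 of 12 cofactors were lower. Epithelial transcription factors, genes with ESRP-regulated exons and non-coding neighbours each had 1 gene higher. Between mCherry and GFP in the dark, 1 of 16 mesenchymal genes was higher and the other lists gave 0, where 0.797% of all genes were called.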

How the data were processed

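The members, gene lists and comparisons were chosen with earlier results of these data known. Per the submitters' processing notes, the authors used FastQC, cutadapt, Bowtie2, STAR, HTSeq and DESeq, in versions that the labels leave out. GRCh38 is the build in those notes and hg19 the one in the sample table's header. Positions come from GENCODE 29 (GRCh38) through the Ensembl identifiers. Gene values are a normalised signal deposited by the authors. Division by each library's smallest nonzero value gave whole reads for 100.0% of values within 0.01. Of the authors' deposited sample table, total read counts, GC and aligned percent and the RNA integrity number (a score) were used for the 12 monoculture libraries. Depth sets the precision of low genes, and spread comes from 3 libraries per group.

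Changes were tested with limma-trend 3.58.1 (R 4.3.3) on log2(value + 1) for genes with at least 10 in at least 3 libraries, in separate fits of the 12 monoculture and 12 co-culture libraries and a fit of all 24, without a replicate block. The monoculture fit was checked on simulated counts with the same spread for all genes, in which only genes with a mean over 50 were changed. That check did not cover changed genes that start near the floor, as SNAI2, TWIST1, ZEB1 and ZEB2 do here. Alternatives were pseudocounts, filters, TMM scaling, edgeR 4.0.16 and DESeq2 1.42.0 on recovered reads, thinning, fewer groups, leaving out libraries and a block. Co-culture columns matched a group but no numbered sample and carry the letters a, b and c here. Named genes are the members, CDH1, up to 4 genes per list and direction with the largest called change and a mean of at least 50, and the 3 most alike genes per member. ZEB1-AS1, ZEB2-AS1, MIR200CHG, SNAI1P1, FOXC2, PRRX1, LOX, POSTN, TFAP2A, CLDN4, CDS1, CDH2 and FN1 were named after their values were seen. Per kb values use GENCODE 29 exon lengths.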

Additional observations from a re-analysis of the deposited data

Results flagged for a closer look

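For each of the 10 members the light response of engineered cells differed from that of wild-type cells in both cultures, by the limma test of the interaction. The difference of log2 changes, Cry2 minus wt in monoculture, was 4.99 for SNAI1, 7.04 for SNAI2, 2.50 for TWIST1, 6.66 for ZEB1 and 11.49 for ZEB2. It was -3.52 for ESRP1, -5.51 for ESRP2, -3.73 for GRHL2, -3.08 for OVOL1 and -4.16 for OVOL2. In co-culture, mCherry minus GFP, it was 5.16 for SNAI1, 6.53 for SNAI2, 5.02 for TWIST1, 7.01 for ZEB1 and 8.83 for ZEB2. For the genes that fell it was -3.85 for ESRP1, -5.40 for ESRP2, -4.19 for GRHL2, -4.42 for OVOL1 and -3.75 for OVOL2. Adjusted p ran from 2.58e-13 to 0.0102 in monoculture and from 1.07e-13 to 0.000107 in co-culture, with TWIST1 the weakest in each. TWIST1 and ZEB2 passed the filter in both cultures through the illuminated engineered libraries alone, so their calls follow in part from it. The 2 cultures used separate libraries throughout.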

How the results depend on the processing

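Of 2155 member changes recomputed under 35 alternatives, 2130 kept their side of the threshold and 0 reversed. For wt light against dark, DESeq2 called 1 in place of 0. For Cry2 against wt in the dark, the call of TWIST1 became 0 calls with a pseudocount of 5, edgeR, DESeq2, only the groups compared (where TWIST1 was filtered out) or without the libraries of low GC, RIN or depth, a choice made after seeing the data, and 0 to 1 when leaving out libraries in turn. For GFP light against dark, the call of GRHL2 became 0 with a pseudocount of 0.5, no filter, thinning or without those libraries, and 0 to 0 when leaving out libraries in turn. For the wild-type light effect, co-culture minus monoculture, DESeq2 and the fit of only the groups compared called 1. For the engineered effect, leaving out libraries gave 0 to 1. In each called light comparison and interaction of engineered cells, leaving out libraries gave 9 to 10 calls, the 9 wherever TWIST1 fell under the filter and was not tested. The monoculture interaction gave 9 with a pseudocount of 0.5, edgeR or DESeq2. The causes of the other changes were not tested.

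Replicate numbers did not pair the monoculture samples: same-numbered libraries of different groups correlated from -0.061 to 0.058 after group means were removed (18 pairs, 0 over 0.1). With the replicate block the members called stayed at 10, 0, 1, 10 and 10 in the 5 monoculture comparisons. No paired analysis was possible in co-culture because its columns carry no replicate numbers.

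Calls over all genes moved by more than 1.5 times in several backgrounds. For wt light against dark, 14 became 290 with DESeq2, 47 with edgeR, 6 with no filter, 4 with only these groups, 2 without the libraries of low GC, RIN or depth, and 3 to 32 without single libraries. For Cry2 against wt in the dark, 700 became 1230 with DESeq2, 2470 with only these groups, 267 without those libraries and 327 to 411 without single libraries. For GFP light against dark, 894 became 1469, 1356 and 484 to 781. For mCherry against GFP in the dark, 155 became 291, 385 and 93 to 106. For the culture effects, 13 became 26, 0 and 0 to 80 in engineered cells, and 467 became 763 with DESeq2, 267 without those libraries and 271 to 494 in wild-type cells. Depth limits SNAI2, TWIST1, ZEB1 and ZEB2 in dark and wild-type groups, which hold 1 to 66 reads per gene and group.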
